A study of Mus musculus with 8 samples.

Results

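The keratin genes examined here were the protein-coding entries of the deposited expression table whose symbol is Krt followed by a number and at most 1 letter. The rule used names only, and it found 53 genes among 55933. Each library comes from the mammary epithelial cells of a single mouse, at pregnancy day 14.5, and there are 4 control and 4 cKO animals. The cKO mice carried K14-rtTA, teto-Cre and Bmpr1a fl/fl on a C57BL/6 background, and doxycycline in the drinking water switched on Cre in cells that use the K14 promoter. The controls were littermates of the same strain that the sample labels call wild type, and their alleles and whether they drank doxycycline are not given in the sources used here. The cells were released by collagenase and hyaluronidase and were not sorted, so each library mixes the luminal and myoepithelial layers with whatever else remained, and fewer cells of a type cannot be told apart from less RNA per cell.

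Keratins are the intermediate filament proteins of epithelia. Each filament is built from pairs of an acidic type I and a basic type II chain, so a cell needs members of both families, and the genes lie in a type I and a type II cluster. In the mammary gland, the outer myoepithelial (basal) layer is known by Krt5 and Krt14 and the inner luminal layer, which makes the milk, by Krt8 and Krt18. The promoter that drives the deletion in this model is that of a keratin, Krt14. Other keratins mark cornifying epidermis, hair or mucosa, and Krt6 and Krt16 are known from wounded or stressed skin.

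Values are FPKM, fragments per kilobase of gene at a common library depth, and behind them lay 16123108 to 19896988 reads on genes per library. Groups were compared with limma on log2(FPKM + 1) over the 15143 genes with a mean of at least 0.5 FPKM, with Benjamini-Hochberg adjustment over all of them, and a gene was called at an adjusted p under 0.05. Means are given with the SD over the mice of a group (n = 4 in both groups). Bmpr1a itself was at 10.6, 11.7, 8.74 and 9.52 FPKM in control replicates 1 to 4 and at 12.01, 12.03, 10.2 and 10.4 FPKM in the libraries labelled cKO (adjusted p = 0.56 by limma). The table holds 1 value for the whole gene, with the deleted part not separated, so this value does not check the labels, and the direction of every difference given here rests on them. Replicates 1 and 2 stood apart from replicates 3 and 4 in both groups, and the labels name no batch.

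Of the 53 keratins, 28 are type I and 25 are type II. On GRCm38, 27 of the type I genes lie on chromosome 11 between 99232761 and 100269871. All 25 type II genes lie on chromosome 15 between 101347444 and 102032027, together with Krt18, the type I gene next to its partner Krt8. The last genes of the chromosome 11 cluster are Krt15, Krt19, Krt9, Krt14, Krt16, Krt17 and Krt42, all expressed except Krt9. Krt23 lies further inside that cluster. Krt8 and Krt18 stand side by side at the end of the chromosome 15 cluster, whereas Krt5 and Krt7 lie elsewhere in it. The keratins on both sides of Krt5 and of Krt23 are scarce or silent. The mean FPKM reached 0.5 in 17 keratins, 9 of type I and 8 of type II, and stayed below it in 36.

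**Figure D1:**
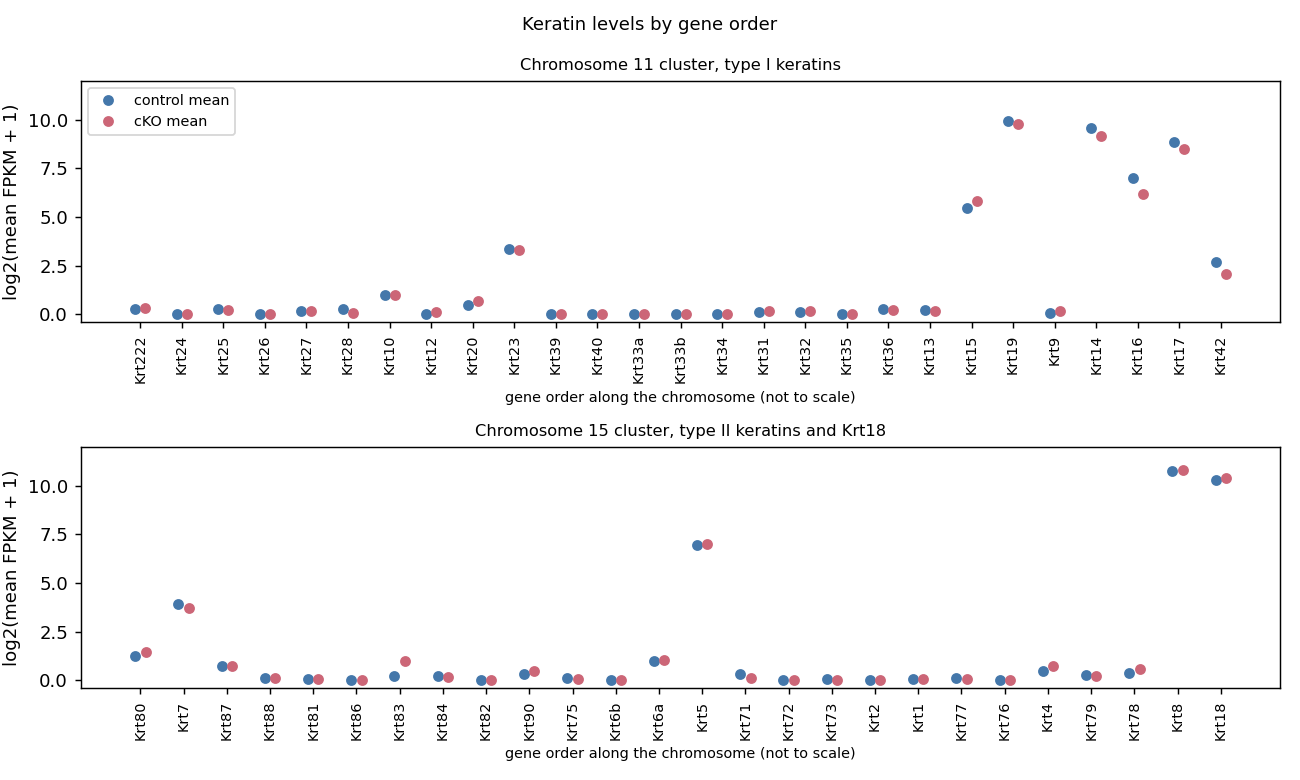
Mean level of each of the 53 keratins, as log2(mean FPKM + 1), in the order of the genes along chromosome 11 (upper panel) and chromosome 15 (lower panel), with control means in blue and cKO means in red. Most positions sit near 0, and 6 of the 9 type I genes tested stand at the right end of the upper panel (Krt23 and Krt10 lie in its left part, Krt18 in the lower panel), where the cKO points of Krt14, Krt16, Krt17 and Krt42 lie below the control points.

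Of the 17 keratins tested, 1 passed the adjusted threshold: Krt16, which fell. With the 2 sets of replicates as a block, Krt14 and Krt17 passed as well (adjusted p = 0.0187 for Krt14, 0.0345 for Krt16 and 0.0498 for Krt17 by limma), and so did 2.92% of all genes. That grouping into sets was taken from these same data. With a block by replicate number none of the 3 passed (adjusted p = 0.0607, 0.0528 and 0.0642 by limma). Without a block, 135 of all genes tested passed the threshold, which is 0.892% (0.304% were called lower). The groups did not overlap in 2 keratins, against 10.7% of all genes: Krt16 was lower in every cKO library, as were 4.6% of all genes, and Krt83 was higher, as were 6.1%. At an unadjusted p under 0.05, 4 keratins passed, against 16.4% of all genes. These were Krt14, Krt16 and Krt42 with lower means in cKO, where the background in that direction was 7.53%, and Krt83 with a higher one, where it was 8.85%. Krt83 and Krt4 reached the filter of 0.5 FPKM only through their cKO libraries, so a higher cKO mean came with their being tested and their place in these counts supports nothing. The median log2 fold change of the 17 was -0.01, and that of all genes tested was 0.00. Among the 9 type I keratins 3 had an unadjusted p under 0.05, all lower in cKO, with a median of -0.11.

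**Figure D2:**
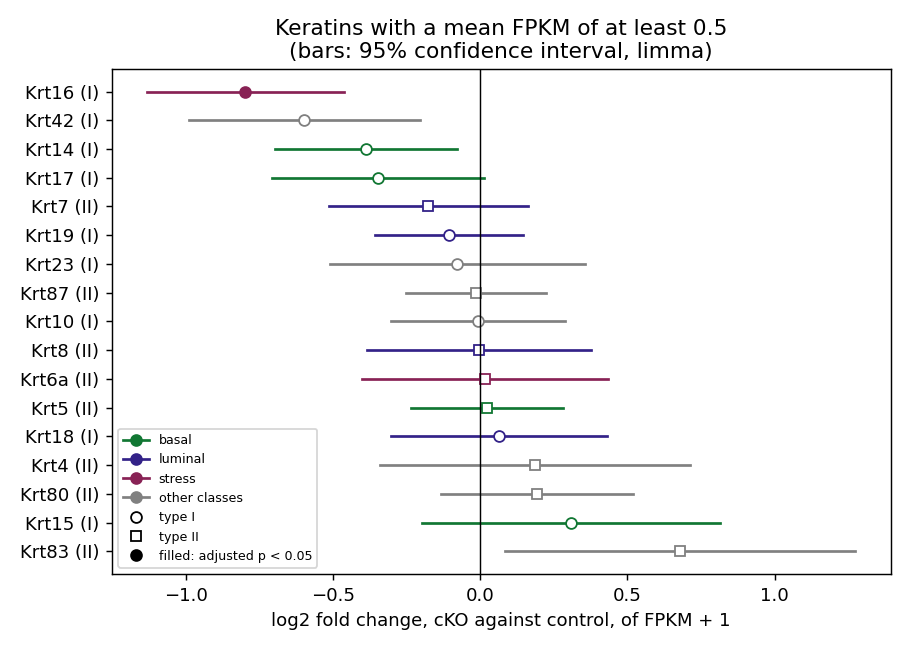
Log2 fold change of cKO against control on FPKM + 1, with its 95% confidence interval, for the 17 keratins with a mean FPKM of at least 0.5, coloured by class, with round points for type I and square points for type II genes. Krt16 is the only filled point (adjusted p under 0.05 by limma), and the 4 lowest estimates all belong to type I genes.

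Krt16, a type I keratin known as the partner of Krt6 in stressed epidermis, fell in cKO. Control replicates 1 to 4 held 107, 119, 150.3 and 129 FPKM. The cKO libraries held 69.9, 70.2, 92.4 and 58.5 FPKM. Every cKO library lay below every control library. The control mean was 126 ± 18.1 FPKM and the cKO mean 72.8 ± 14.2 FPKM, which on the log2 scale is -0.80 with a 95% confidence interval from -1.13 to -0.46 (adjusted p = 0.0494 by limma). The exact two-sided permutation test gave p = 0.0286, the smallest value that 4 against 4 libraries allow. The log2 difference was -0.68 between the means of replicates 1 and 2 and -0.91 between those of replicates 3 and 4. The adjusted p lies close to the threshold. Leaving out any library other than cKO replicate 3 ended the call, at an adjusted p of 0.0874 to 0.128 by limma, while the log2 fold change stayed between -0.92 and -0.70 whichever library was left out.

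Among the adjacent keratins Krt14, Krt17 and Krt42, the coding sequence of Krt14 is the one most like that of Krt16, which bears on how reads can be assigned. Krt14, Krt16, Krt17 and Krt42 follow each other on the minus strand of chromosome 11, and their coding sequences match Krt14 at 85.5% of aligned bases for Krt16, 83.0% for Krt17 and 79.5% for Krt42. A 60-base coding stretch of exon 6 shows how alike they can be. It is printed 5′ to 3′ from GENCODE vM21 on GRCm38, with bases that differ from Krt14 in capitals, and lies at chr11:100204121-100204180 for Krt14, chr11:100246623-100246682 for Krt16, chr11:100257446-100257505 for Krt17 and chr11:100264491-100264550 for Krt42:
Krt14: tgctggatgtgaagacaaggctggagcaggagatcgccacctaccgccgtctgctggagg
Krt16: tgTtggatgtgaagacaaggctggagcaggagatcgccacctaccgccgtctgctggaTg
Krt17: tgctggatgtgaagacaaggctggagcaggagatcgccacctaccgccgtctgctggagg
Krt42: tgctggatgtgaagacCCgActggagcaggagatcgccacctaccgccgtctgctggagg
Here Krt17 equals Krt14 at all 60 bases, Krt16 at 58 and Krt42 at 57. The genes are told apart elsewhere. In the stretch of the same length where the Krt14 and Krt16 coding sequences match least, in exon 5 at chr11:100204463-100204522 and chr11:100247141-100247200, 36 bases match:
Krt14: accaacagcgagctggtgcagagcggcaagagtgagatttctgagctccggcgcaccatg
Krt16: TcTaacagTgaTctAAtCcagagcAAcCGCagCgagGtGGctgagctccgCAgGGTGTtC
Of all 50-base words in the transcripts of Krt16, 12.4% also occur in Krt14 and 25.2% in Gm11597, an annotated gene between them that had at most 0.692 FPKM in any library. Of the words of Krt14, 11.01% occur in Krt16 and 3.22% in Krt17. With words of 100 bases, 3.14% of those of Krt16 were shared with the other 3 keratins, and with words of 150 bases none were. How reads that match several genes were counted is not given in the sources used here, so part of the reads of each of these genes could belong to a neighbour, and the size of that part was not tested.

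Among the basal keratins, no gene passed the adjusted threshold, and the 4 did not shift together: their log2 fold changes ran from -0.39 to 0.31. Krt14, the type I chain of the basal pair, was at 679.8, 665, 816 and 849.7 FPKM in control replicates 1 to 4. In the cKO libraries it was at 512, 490.1, 666 and 641 FPKM. The groups crossed only in the lowest control and the highest cKO library, and within each set of replicates (1 and 2, or 3 and 4) both control libraries lay above both cKO libraries. The cKO mean was 0.767 times the control mean, with a log2 fold change of -0.39 and a 95% confidence interval from -0.70 to -0.08 (adjusted p = 0.209, unadjusted p = 0.0198 by limma). The block for the sets of replicates is a grouping known from earlier work on these data, and over all alternatives the adjusted p of Krt14 by limma ran from 0.00972 to 0.431.

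Krt5, the type II chain of the same pair, differed by far less than its spread. It was at 112, 117, 139 and 134 FPKM in control replicates 1 to 4. In cKO replicates 1 to 4 it was at 112, 118, 154 and 129 FPKM. Both groups cover nearly the same range, and the log2 fold change was 0.02, with a 95% confidence interval from -0.23 to 0.28 (adjusted p = 0.941 by limma). The ratio of Krt14 to Krt5 within a library does not depend on library scaling. It was 5.99 ± 0.289 in control and 4.51 ± 0.356 in cKO libraries. The lowest control ratio, 5.66, lay above the highest cKO ratio, 4.98. Ratios and shares between keratins were described without a test. 

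Krt17, a type I keratin of basal and myoepithelial cells that is also switched on in wounds, had values of 378, 401, 547 and 516 FPKM in control replicates 1 to 4. Its cKO values were 299, 333, 441 and 371 FPKM. The groups overlap as a whole but not within either set of replicates. The log2 fold change was -0.35, with a 95% confidence interval from -0.71 to 0.01 (adjusted p = 0.32 by limma, 0.0498 with the sets of replicates as a block, and 0.0155 to 0.547 over the alternatives tried). The ratio of Krt17 to Krt14 was 0.609 ± 0.0475 in control and 0.626 ± 0.0518 in cKO libraries, with overlap.

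Krt15, a type I keratin of basal cells linked to stem cell compartments in skin, differed between cKO mice more, relative to its mean, than the other 7 lineage keratins. It was at 35.9, 47.7, 41.1 and 50.1 FPKM in control replicates 1 to 4. In cKO replicates 1 and 2 it was at 37.0 and 44.4 FPKM, inside the control range, and in cKO replicates 3 and 4 it was at 78.7 and 65.0 FPKM, above it. The log2 difference was accordingly -0.03 for replicates 1 and 2 and 0.64 for replicates 3 and 4, and over all 8 libraries it was 0.31 (95% confidence interval from -0.20 to 0.81, adjusted p = 0.545 by limma). Relative to Krt14, Krt15 was higher in every cKO library: the ratio ran from 0.0504 to 0.0717 in control and from 0.0723 to 0.118 in cKO libraries.

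The luminal keratins held the largest part of the keratin signal, and none of the 4 passed either threshold in the main test. Krt8, the type II chain of the luminal pair, was at 1722, 1513, 1835 and 1981 FPKM in control replicates 1 to 4. The cKO libraries had 1444, 1464, 2109 and 2104 FPKM. The cKO libraries split into 2 libraries below and 2 above all 4 controls, so the mean barely moved while the SD was 197 in control and 377 in cKO. The log2 fold change was -0.00 (95% confidence interval from -0.38 to 0.38, adjusted p = 0.995 by limma). A processed copy, Krt8-ps, shares 26.9% of the 50-base words of Krt8 and was at 16.4 to 22.6 FPKM.

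Krt18, the type I partner of Krt8, was at 1223, 1067, 1337 and 1485 FPKM in control replicates 1 to 4 and at 1105, 1163, 1451 and 1663 FPKM in cKO replicates 1 to 4. The ranges overlap as those of Krt8 do, with a log2 fold change of 0.06 (95% confidence interval from -0.30 to 0.43, adjusted p = 0.883 by limma). The ratio of Krt8 to Krt18 was 1.38 ± 0.038 in control and 1.32 ± 0.0909 in cKO libraries, and unlike the Krt14 to Krt5 ratio it overlapped between the groups.

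Krt19, a type I keratin of simple and ductal epithelia, ranged from 851 to 1056 FPKM in control and from 797 to 976 in cKO libraries. Its log2 fold change was -0.11, with a 95% confidence interval from -0.36 to 0.15 (adjusted p = 0.687 by limma). Krt7, the type II keratin of simple epithelia, was the scarcest of the 4 luminal genes. It was at 14.99, 10.97, 15.2 and 14.7 FPKM in control replicates 1 to 4 and at 9.13, 12.8, 14.9 and 12.4 in cKO replicates 1 to 4, with replicate 2 apart from the other controls. The log2 fold change of Krt7 was -0.18 (95% confidence interval from -0.51 to 0.16, adjusted p = 0.611 by limma). Its FPKM was computed on a length 1.72 times that of its longest coding transcript, which lowers its level relative to other keratins but not its difference between groups.

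**Figure D3:**
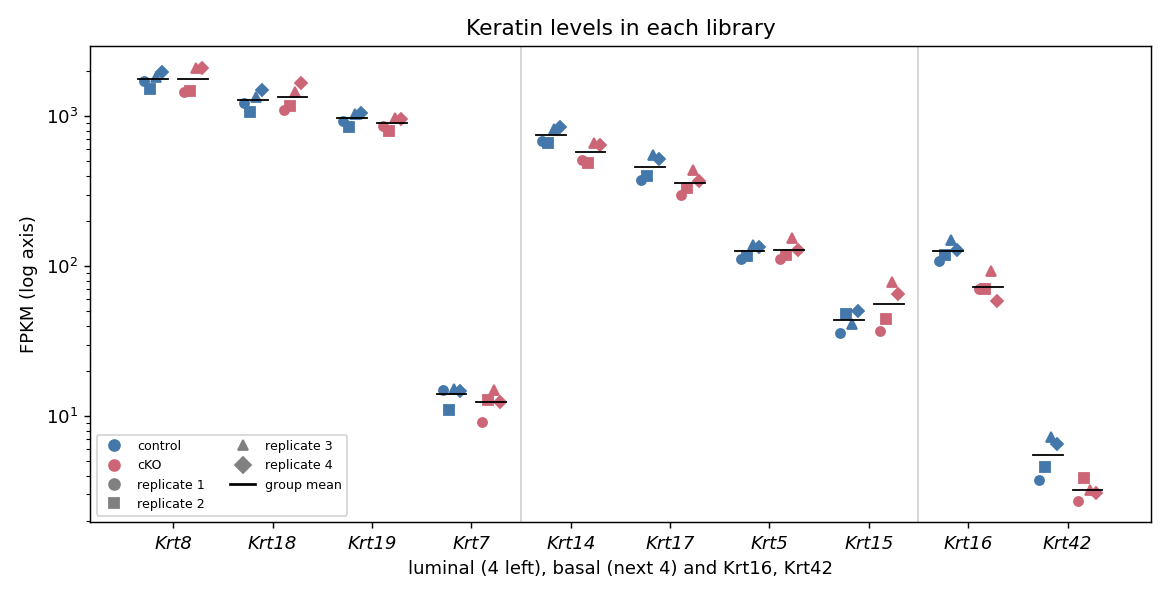
FPKM (log axis) of the 4 luminal keratins, the 4 basal keratins, Krt16 and Krt42 in each of the 8 libraries, with control in blue, cKO in red, a marker shape for each replicate number and a line at each group mean. The Krt16 groups are apart, Krt14 and Krt17 are shifted down in cKO with some overlap, and the ranges of Krt5 and of each luminal gene overlap between the groups.

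Set side by side, the median log2 fold change was -0.16 over the 4 basal and -0.05 over the 4 luminal keratins, a difference of -0.11. With each library left out in turn, that difference ran from -0.16 to -0.06. The settings for filter, trend and block on FPKM leave it unchanged by design, and scaling nearly cancels in it, so they do not test its sign. The log2 fold changes behind it were -0.39 for Krt14, -0.35 for Krt17, 0.02 for Krt5 and 0.31 for Krt15. With the genes weighted equally, the mean log2(FPKM + 1) of the basal minus that of the luminal keratins was -1.02 ± 0.148 in control and -1.06 ± 0.0887 in cKO libraries, with overlap. Shares of the summed keratin FPKM, which the most abundant genes carry, did not overlap. Basal keratins made up 24.9% ± 1.26 in control and 21.4% ± 0.999 in cKO libraries (23.1% was the lowest control share and 22.3% the highest cKO share). The luminal share is nearly the complement of the basal one, at 72.4% ± 1.52 and 76.8% ± 1.27, and the levels of the luminal genes themselves were not called higher. Krt14 relative to Krt8 was 0.427 ± 0.0223 in control and 0.327 ± 0.022 in cKO libraries. The summed keratin FPKM overlapped between the groups, at 4811 to 6242 in control and 4463 to 6028 in cKO libraries. The ratio of all type I to all type II FPKM, 1.91 ± 0.0693 in control and 1.74 ± 0.106 in cKO libraries, overlapped too.

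**Figure D4:**
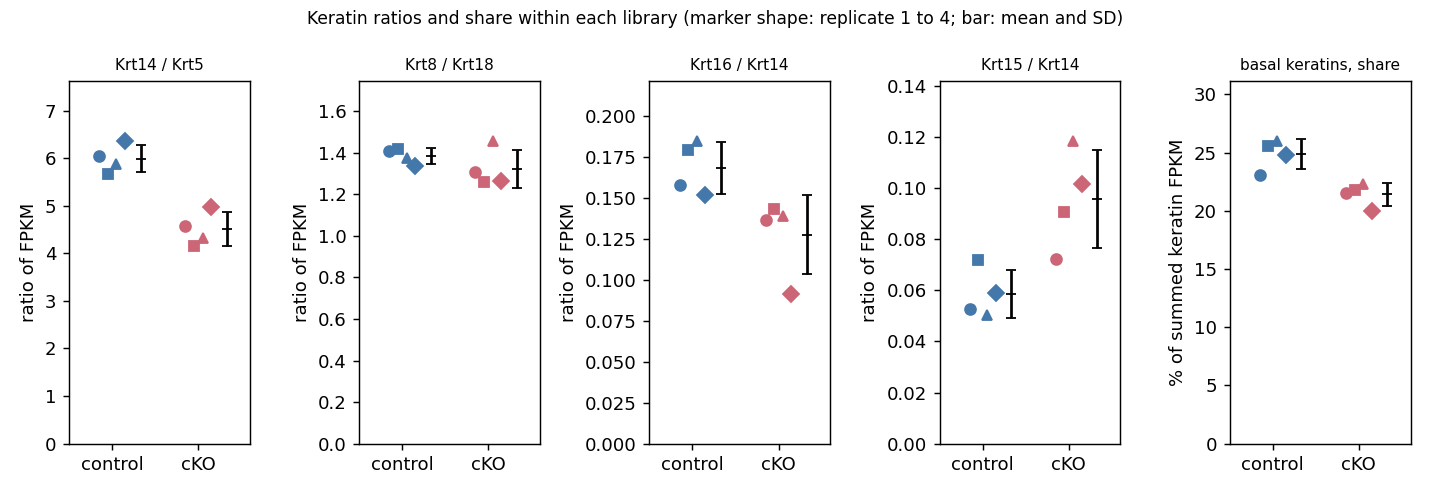
Ratios of FPKM between keratins, and the share of the 4 basal keratins in the summed keratin FPKM, within each library (control in blue, cKO in red, a marker shape for each replicate number, black bars for mean and SD, n = 4 each). The groups are apart for Krt14 to Krt5, Krt16 to Krt14, Krt15 to Krt14 and the basal share, which all contain Krt14 and are not separate results. They overlap for Krt8 to Krt18.

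Markers of the 2 layers other than keratins were read beside these shares. Of 7 myoepithelial markers none passed the adjusted threshold, and their summed level ran from 815 to 1205 FPKM in control and from 887 to 1311 in cKO libraries. The cKO mean was the higher in 5 of the 7. Acta2, the smooth muscle actin of myoepithelial cells, had means of 825 ± 164 and 953 ± 160 FPKM. Oxtr, the oxytocin receptor, was at 2.62 ± 0.329 and 5.65 ± 1.71 FPKM without overlap (adjusted p = 0.0644 by limma). Trp63, a transcription factor of basal cells, was at 3.58 ± 0.576 and 2.45 ± 0.594 FPKM without overlap (adjusted p = 0.181 by limma). Snai2, another basal transcription factor, is in none of the lists and is named after its values were seen. It was at 12.2 ± 1.19 and 8.59 ± 1.31 FPKM without overlap (adjusted p = 0.0901 by limma). Of 6 luminal markers none passed the adjusted threshold either, with summed levels from 1953 to 2542 in control and from 1886 to 2369 FPKM in cKO libraries. The cKO mean was the higher in 3 of the 6, and the median log2 fold change was -0.03. Epcam, an adhesion molecule of epithelial cells, was at 1074 ± 56.3 and 951 ± 61.4 FPKM (adjusted p = 0.379 by limma). Elf5, a transcription factor of milk-producing luminal cells, was at 21.3 ± 3.91 in control and 38.5 ± 8.02 FPKM in cKO libraries without overlap (adjusted p = 0.0591 by limma). No marker of either list was at 0 in any library. Mesothelium also makes simple-epithelial keratins such as Krt7, Krt8, Krt18 and Krt19, and of 4 mesothelial markers 3 stayed under 1 FPKM in every library, with a summed level of 2.29 to 2.79 in control and 1.55 to 2.09 FPKM in cKO libraries. The part of cell composition in the keratin differences was not tested.

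The order of the levels was nearly the same in both groups. Per length, Krt8 stood above Krt18, Krt19, Krt14, Krt17 and Krt5, in that order, in 8 of 8 libraries. Krt5 and Krt16 were neighbours that did not differ in control, where Krt5 was the higher in 2 of 4 libraries, whereas it was the higher in 4 of 4 cKO libraries. Krt16 stood above Krt15 in 4 of 4 control and 3 of 4 cKO libraries. Lower down, the values of Krt6a and Krt10 overlapped, and Krt87 stood above Krt83 in 4 of 4 control but in 2 of 4 cKO libraries. Krt83, with 3 to 79 reads, reached the filter only through its cKO libraries, so its change of place supports nothing. All 8 lineage keratins also had higher means in replicates 3 and 4 than in replicates 1 and 2 in both groups, by 1.09 to 1.37 times in control and by 1.17 to 1.77 times in cKO libraries. For Krt8, whose cKO means were 1454 FPKM in replicates 1 and 2 and 2106 FPKM in replicates 3 and 4, this gap exceeded that between control and cKO.

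The remaining expressed keratins were scarce. Krt42, a mouse type I keratin next to Krt17, was at 3.76, 4.55, 7.24 and 6.49 FPKM in control replicates 1 to 4 and at 2.73, 3.85, 3.21 and 3.08 FPKM in the cKO libraries. The groups overlap through 2 libraries, and the log2 fold change was -0.60 (95% confidence interval from -0.99 to -0.21, adjusted p = 0.141 by limma). It was -0.27 between replicates 1 and 2 and -0.92 between replicates 3 and 4. Krt14, Krt16, Krt17 and Krt42, the adjacent genes at the cluster's end, thus had the 4 lowest estimates of the 17 keratins, a grouping made after the values were seen. Krt23, another type I keratin, was at 9.38 ± 2.59 FPKM in control and 8.74 ± 1.84 in cKO libraries (adjusted p = 0.878 by limma). Krt80, of type II, was at 1.39 ± 0.248 and 1.76 ± 0.527 FPKM (adjusted p = 0.556 by limma).

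Krt83, a type II keratin of hair, was tested only because of its cKO libraries, and without cKO replicate 4 its mean lay under the filter. It was at 0.157, 0.188, 0.162 and 0.0868 FPKM in control replicates 1 to 4 and at 0.394, 0.889, 0.308 and 2.31 FPKM in cKO replicates 1 to 4. Only 3 to 79 reads lay behind these values, 6 at most in control, and the cKO libraries differed widely among themselves. The log2 fold change depended on the scale: 0.68 on FPKM + 1 (95% confidence interval from 0.08 to 1.27, adjusted p = 0.245 by limma), 1.76 on FPKM + 0.1 and 2.22 with limma-voom on recovered reads. Of its 50-base words, 18.8% also occur in Krt86, which had at most 0.061 FPKM. The summed level of 4 hair follicle markers was 1.11 to 1.68 FPKM in control and 1.12 to 1.68 in cKO libraries. Of these, Padi3 and Hoxc13 stayed at or below 0.037 FPKM. Tchh, of the hair root sheath, was at 0.398 ± 0.172 in control and 0.704 ± 0.158 FPKM in cKO libraries, and like Krt83 it reached the filter only through the latter. S100a3 was at 0.91 ± 0.141 and 0.709 ± 0.157 FPKM (adjusted p = 0.461 by limma). Their part in the Krt83 values was not tested. Krt87, also a type II hair keratin, was at 0.678 ± 0.214 and 0.65 ± 0.0332 FPKM (adjusted p = 0.963 by limma).

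Keratins of cornifying epidermis were scarce in both groups, and those other than Krt10 were at or near the limit of detection. Krt10, the type I chain of suprabasal epidermis, ranged from 0.601 to 1.39 FPKM in control and from 0.858 to 1.251 in cKO libraries, which is 22 to 55 reads. Its log2 fold change was -0.01 (95% confidence interval from -0.30 to 0.29, adjusted p = 0.985 by limma). Its type II partner Krt1 reached at most 0.11 FPKM, and Krt2, of the upper epidermis, had no read in any library. The 5 suprabasal keratins together made up 0.021% of the keratin FPKM in control and 0.0232% in cKO libraries, with overlap. Of 15 markers of cornified epidermis, 12 stayed under 1 FPKM in every library. Among these, Flg2, Lce1a1 and Sprr2a1 had no read, and Lor, the main protein of the cornified envelope, stayed at or below 0.805 FPKM. The summed level of the 15 was 56.6 to 74.7 FPKM in control and 64.4 to 78.1 in cKO libraries, most of it from Dmkn and Sbsn. The difference of Krt10 was thus within the spread between mice, and the other 4 suprabasal keratins were too scarce to test.

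Of the stress keratins, Krt16 was far more abundant per length than Krt6a and Krt6b. Krt6a, the type II partner of Krt16 in wounded skin, was at 1.00, 0.621, 1.01 and 1.39 FPKM in control replicates 1 to 4 and at 0.9, 1.15, 1.67 and 0.49 FPKM in cKO replicates 1 to 4. The groups overlap throughout, and the log2 fold change was 0.01 (95% confidence interval from -0.40 to 0.43, adjusted p = 0.977 by limma). Krt6b had 1 read in 1 control library and none in the others. Of the 50-base words of Krt6a 40.2% occur in Krt6b, so the split between those genes is uncertain. Relative to Krt14, Krt16 was at 0.168 ± 0.0159 in control and 0.127 ± 0.0243 in cKO libraries, without overlap, and cKO replicate 4 was the lowest at 0.0913. Krt4, a type II keratin of mucosa, varied widely between libraries. It was at 0.568, 0.217, 0.56 and 0.225 FPKM in control replicates 1 to 4 and at 0.121, 1.51, 0.354 and 0.606 FPKM in cKO replicates 1 to 4 (adjusted p = 0.742 by limma).

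The 36 keratins under the filter never exceeded 0.866 FPKM, the level of Krt20 in cKO replicate 4, or 32 reads. They comprise all 8 hair root sheath keratins, 13 of 15 hard hair keratins, 4 of 5 suprabasal and 4 of 5 mucosal and corneal keratins, Krt6b and 6 others. No read lay on 8 of them (Krt2, Krt24, Krt26, Krt33a, Krt33b, Krt34, Krt72 and Krt82). Another 15 had reads in every library (Krt1, Krt9, Krt13, Krt20, Krt25, Krt27, Krt31, Krt36, Krt75, Krt77, Krt78, Krt79, Krt84, Krt90 and Krt222), and 13 had reads in some, with at most 14 in a library. Krt28, a root sheath keratin, was the only one of the 36 whose groups did not overlap, at 0.11 to 0.284 FPKM in control and 0 to 0.078 in cKO libraries. Such a lower level in every cKO library was found in 1.2% of all genes that had reads but lay under the filter. Krt28 is named here after its values were seen. When no filter was applied, Krt28, Krt71 and Krt12 had an unadjusted p under 0.05 and none an adjusted p under 0.05 by limma, where 10.3% of all genes had an unadjusted p under 0.05.

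Genes for proteins that anchor or accompany keratin filaments were listed as partners. Of 28 such genes, 23 were tested and none passed the adjusted threshold by limma (Des did with limma-voom, with library totals and with the block of replicate sets), while 5 had an unadjusted p under 0.05, against the 16.4% of all genes. Their median log2 fold change was -0.07. Krt5 and Krt14 filaments are tied to the basement membrane through the integrin of hemidesmosomes. Its chain Itgb4 was at 16.2 ± 0.701 FPKM in control and 18.3 ± 1.32 in cKO libraries, without overlap (log2 fold change 0.16, adjusted p = 0.28 by limma). The partner chain Itga6 was at 57.1 ± 4.75 and 61.0 ± 4.35 FPKM (log2 fold change 0.09, adjusted p = 0.619 by limma). Plec, the linker between that integrin and keratin, was at 30.3 ± 2.57 and 26.6 ± 2.33 FPKM (log2 fold change -0.18, adjusted p = 0.322 by limma).

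At desmosomes, which join keratin filaments of neighbouring cells, Dsp, the filament linker, was at 17.8 ± 1.46 FPKM in control and 16.1 ± 1.76 in cKO libraries (log2 fold change -0.14, adjusted p = 0.501 by limma). The plakophilin Pkp2 was higher in all 4 cKO libraries, at 15.7 ± 0.414 against 13.9 ± 0.59 FPKM (log2 fold change 0.16, adjusted p = 0.206 by limma). With scaling to equal FPKM sums or to library totals, the log2 fold changes of both Pkp2 and Itgb4 were about 0.10 and their unadjusted p was no longer under 0.05. Pkp4 had means of 30.8 ± 1.84 in control and 26.8 ± 1.95 FPKM in cKO libraries (log2 fold change -0.20, adjusted p = 0.227 by limma). The desmosomal cadherins of stratified epidermis, Dsg1a, Dsg1b, Dsg3, Dsc1 and Dsc3, were all under the filter. Of these only Dsg3 had groups that did not overlap, at 0.352 FPKM in control and 0.155 in cKO libraries with 12 to 53 reads. Such a lower level in every cKO library was found in 1.2% of genes with reads under the filter, and Dsg3 was singled out after its values were seen.

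Intermediate filaments of other families had lower means in cKO. Des, the muscle filament desmin, was at 2.55, 2.48, 3.15 and 2.57 FPKM in control replicates 1 to 4 and at 1.81, 1.03, 1.69 and 1.64 FPKM in cKO replicates 1 to 4. All cKO libraries lay below all controls (log2 fold change -0.54, 95% confidence interval from -0.81 to -0.28, adjusted p = 0.0717 by limma). Nes, or nestin, was at 7.62 ± 1.27 and 6.02 ± 0.994 FPKM (log2 fold change -0.30, adjusted p = 0.285 by limma). Vim, the vimentin of mesenchymal cells, was at 126 ± 18.7 and 102 ± 17.6 FPKM (log2 fold change -0.30, adjusted p = 0.342 by limma). The 4 fibroblast markers summed to 246 to 492 FPKM in control and 165 to 371 in cKO libraries, and none was at 0. Each had a lower cKO mean, but all overlapped between the groups, and Pdgfra was nearly level at 4.48 and 4.33 FPKM. Both endothelial markers also had lower cKO means with overlap, Pecam1 at 24.2 and 19.8 FPKM and Cdh5 at 36.1 and 31.0 FPKM. The part of these cell types in the values of Vim, Nes and Des was not tested.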

How the data were processed

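RNA-seq libraries of 8 mice (NEBNext Ultra) were mapped by the authors to GRCm38 with Hisat2, per the study's methods. The submitters' processing notes name StringTie 1.3.3b, featureCounts 1.5.0-p3 and the build mm9, but 99.68% of the table's identifiers found in GENCODE vM21, and all 53 keratins, have GRCm38 coordinates. The deposited values are FPKM. Multiplied by gene length and by the library size that each column implies, they gave whole reads for 100% of values (tolerance 0.01 of a read), and they already contain median-of-ratios size factors. Strand use in counting is not given in the sources used here. Exons of antisense genes overlap Krt8, Krt5, Krt7, Krt80, Krt6a and Krt10 among the keratins tested, with at most 29 reads on any antisense gene.

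The members, classes and partner list were chosen with earlier results of these data known. Named were the 8 lineage keratins, Krt1, Krt2, Krt10, Krt6a, Krt6b and Krt16, every other keratin with a mean FPKM of at least 0.5, partners with an unadjusted p under 0.05 together with Vim, Dsp, Plec, Itga6 and Itgb4, and markers that bear on a keratin result. The classes were basal, luminal, epidermal suprabasal, stress, mucosal and corneal, hair root sheath, hard hair and other. The authors tested with DESeq2, and FPKM, the deposited unit, are not counts. The main test here was limma 3.58.1 (R 4.3.3, trend, two-sided) on log2(FPKM + 1), with limma-voom on the recovered reads as an alternative. In 5 simulated data sets for the comparison of cKO with control (15109 to 15174 genes tested) limma on FPKM recovered 82.8% of genes changed by 2-fold and 21.6% of those changed by 1.5-fold, and limma-voom recovered 89.2% and 56.8%. The simulated reads had the same dispersion for every gene and no difference between the sets of replicates. The changed genes were drawn from those with a mean FPKM of at least 1. These shares therefore do not give the power in the real libraries. With 4 against 4 libraries no exact permutation p under 0.0286 is possible. Sequences came from GENCODE transcripts. Python 3.11.15, pandas 2.3.3, scipy 1.17.1 and matplotlib 3.10.9 were used otherwise. Alternatives were a pseudocount of 0.1, scaling to equal FPKM sums or library totals, no filter or a mean FPKM of at least 1, no trend, a block by replicate number (replicate block), a block by set (1 and 2, or 3 and 4), limma-voom, the same with a block by replicate number, shares of reads for the ratios, and each library left out.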

Additional observations from a re-analysis of the deposited data

Results flagged for a closer look

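Single libraries far from the other 3 of their group were looked for in 52 groups of 4, and 4 had one, where about 1 in 20, or 2.6, would by chance. Krt7 in control replicate 2 was at 10.97 FPKM, below the 14.7 to 15.2 of the other controls. Des in control replicate 3 was at 3.15 FPKM, above 2.48 to 2.57. In the cKO group, Pkp2 in replicate 2 was at 15.04 FPKM, below 15.8 to 15.9, and Nes in replicate 3 was at 7.51 FPKM, above 5.46 to 5.62. None of the 4 libraries stood apart in the keratins Krt14, Krt16 or Krt5 by the same measure.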

How the results depend on the processing

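Krt14, Krt16 and Krt42 kept a lower cKO mean on the log2 scale under all 18 alternatives. Krt83 kept a higher one under 16 and gave no value at a mean FPKM of at least 1 or without cKO replicate 4. The settings for filter, trend and block on FPKM leave these estimates as they are, so they do not test the direction. Of 10 ratios and shares recomputed, 9 kept the sign of their difference. The difference in Krt17 to Krt14, 0.0171, was -0.000674 without control replicate 1 and -0.000534 without cKO replicate 2 (range to 0.0378). The number of keratins called, 1, was 0 with no filter, without trend, with the replicate block and without any library other than cKO replicate 3 (range 0 to 1). It was 3 (Krt14, Krt16 and Krt17) when the sets of replicates (1 and 2, or 3 and 4) were a block and when limma-voom had the replicate block. Over all genes, 135 calls became 10 with no filter, 50 with the replicate block, 442 with the block of sets, 252 with limma-voom, 680 with limma-voom plus replicate block, and 0 to 78 with a library left out. Keratins at an unadjusted p under 0.05 numbered 7 with no filter and 2 to 5 with a library left out. They numbered 2 both without control replicate 3 and without control replicate 4. With scaling to equal FPKM sums, and with limma-voom plus replicate block, they numbered 6, with Krt17 and Krt19 added, both lower in cKO. Filament partners called numbered 1 (Des) with library totals, the block of sets and limma-voom, and 2 (Des and Nes) with limma-voom and the replicate block. The cause of these shifts was not tested.

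Replicate numbers come from the labels. Deviations from the group means correlated at 0.137, 0.11, 0.116 and 0.0797 for the same number, 0.13 on average for the other number of the same set and -0.12 across sets, so the numbers do not pair the libraries. With the replicate block the adjusted p of Krt16 by limma was 0.0528. Scaling moved the share of higher genes among those at an unadjusted p under 0.05 from 54.0% to 32.2% (equal FPKM sums) or 32.5% (library totals), with a median shift of all genes of -0.05 on the log2 scale, and Krt16 was then at -0.86 in both. The number of mice limits precision, and for keratins under 1 FPKM so does the number of reads.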
